A study of Mus musculus with 8 samples.

Results

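The germline genes described here are 10 genes that are normally read in germ cells and are measured in mouse embryonic stem cells (ESCs): Taf7l, Dazl, Ddx4, Mael, Sycp1, Sycp3, Stk31, Asz1, Slc25a31 and Hormad1. They are 10 of 18194 genes on the array and are covered by 13 of its 45101 probe sets, and all 10 had a probe set. The list was chosen by its signal in Nanog-overexpressing cells, where it was lower as a whole after doxycycline (Dox), so its values in those cells are a description. The tests given here were made on the other backgrounds.

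Germ cells switch on a set of genes that other tissues keep silent. In mammals many of these genes have CpG-rich promoters that are held shut by DNA methylation and by a Polycomb complex whose DNA-binding parts, MGA, MAX and E2F6, recognise E-box and E2F motifs. Cultured ESCs transcribe a number of germ cell genes at some level without being germ cells.

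The cells are NS tet-off ESCs, a male 129sv line in which both alleles of NS (nucleostemin, the gene Gnl3) are disrupted and an NS cDNA at the ROSA26 locus is shut off by Dox. All groups share this genotype, so every comparison is within 1 line, and Dox and the loss of NS cannot be told apart because no Dox-treated cells kept NS. Total RNA of 8 conditions was hybridized to 1 Affymetrix mouse genome array each: Nanog-overexpressing, Esrrb-overexpressing, 2i-treated and empty vector-bearing cells, each Dox-treated for 6 days and Dox-untreated. Cells were grown without feeders in LIF and serum or, for 2i, with inhibitors of MEK and GSK3, and the 2i-treated cells also carried the empty vector. The Dox-treated and the Dox-untreated array of a background are called its pair.

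The values are log2 signals made by robust multiarray analysis, which puts all arrays on the same distribution. Within a pair, a log2 ratio is the Dox-treated value with the Dox-untreated value subtracted, and 1 corresponds to a 2-fold difference. With 1 array per condition a ratio has no replicate check, and precision is limited by how few arrays there are. Array medians lay between 5.31 and 5.36. Gnl3 fell to 9.13, 8.61, 8.01 and 7.79 on the Dox-treated arrays of the Nanog, Esrrb, 2i and empty vector pairs, against 13.68, 13.61, 13.54 and 13.47 on the Dox-untreated arrays (adjusted p = 0.00416 from limma over the Esrrb, 2i and empty vector pairs). The ESC markers Pou5f1 and Sox2 were between 12.71 and 13.28 on every array. Dusp6, which MEK and Erk signalling induces, checked the 2i labels. It was at 7.63 on the 2i and 11.40 on the empty vector Dox-treated array, but at 10.95 on the 2i and 10.97 on the empty vector Dox-untreated array. The 2i Dox-untreated array thus did not show the low Dusp6 of MEK inhibition, and the main 2i results below are also given against the empty vector Dox-untreated array or without the 2i pair. The 2i values of the genes outside the list that are named singly are against the 2i Dox-untreated array unless another is named. Nanog was at 12.23 and 12.35 on the Dox-treated and Dox-untreated Nanog arrays, against 12.49 and 12.81 on the empty vector arrays, and Esrrb at 11.38 and 11.27 on the Esrrb arrays, against 10.38 and 11.31, so neither probe set was higher in both states of its own cells. Where these probe sets lie relative to the introduced cDNAs is not known here.

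The promoters of the 4 genes with the lowest ratios in the Nanog pair, and of Dazl, which was the highest, are shown as examples. The 4 hold the E-box named above and Dazl does not, but Hormad1 (-0.08) and Mael (0.23), which differed little in that pair, hold it too. The examples were picked by the ratios that chose the list, so no link between motif and ratio is read from them. Each line is the 150 bases before the RefSeq start (GRCm38.p6), 5′ to 3′ on the strand of the gene, with the E-box CACGTG in capitals, and likewise the E2F-type motif GCGGGAA, which was also searched on the other strand, where it reads TTCCCGC.
Taf7l: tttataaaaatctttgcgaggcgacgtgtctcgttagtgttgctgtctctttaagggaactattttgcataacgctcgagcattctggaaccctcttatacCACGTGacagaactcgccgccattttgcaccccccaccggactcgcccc
Sycp3: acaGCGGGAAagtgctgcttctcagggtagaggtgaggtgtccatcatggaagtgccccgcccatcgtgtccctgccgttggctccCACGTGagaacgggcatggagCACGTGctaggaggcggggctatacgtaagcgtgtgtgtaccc
Stk31: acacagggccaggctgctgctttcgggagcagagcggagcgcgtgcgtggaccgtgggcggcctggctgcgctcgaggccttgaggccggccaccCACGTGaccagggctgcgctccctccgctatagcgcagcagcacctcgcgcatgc
Slc25a31: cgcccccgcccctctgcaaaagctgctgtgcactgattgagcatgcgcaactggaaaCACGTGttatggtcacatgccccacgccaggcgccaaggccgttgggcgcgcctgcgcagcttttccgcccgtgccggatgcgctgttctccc
Dazl: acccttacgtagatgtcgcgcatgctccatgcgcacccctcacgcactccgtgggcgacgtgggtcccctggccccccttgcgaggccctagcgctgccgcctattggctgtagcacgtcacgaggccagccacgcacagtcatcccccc
These windows lie at chrX:134476491-134476640 (minus strand) for Taf7l, chr10:88459437-88459586 (plus) for Sycp3, chr6:49395389-49395538 (plus) for Stk31, chr3:40708721-40708870 (plus) for Slc25a31 and chr17:50293621-50293770 (minus) for Dazl. Stk31 and Hormad1 each had 2 RefSeq start windows, and the first was used.

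The germline promoters held CACGTG more often than promoters in general. Over the 250 bases before the start, 8 of 10 genes (80%) held CACGTG, which reads the same on both strands, against 1978 of 32851 promoters of the same length (6.02%) and 1074 of 11003 promoters with at least 12 CpG (9.76%). The germline genes count once each, while a gene with several RefSeq starts counts once per start among all promoters. Counted from the start, where -1 is the base before it, the motif began at -49 in Taf7l, -64 and -43 in Sycp3, -55 in Stk31, -93 in Slc25a31, -94 in Sycp1, -29 in Ddx4, -57 and -20 in Hormad1 and -223 in Mael. Neither Asz1 nor Dazl had it. GCGGGAA on either strand was in 3 of 10 (Ddx4, Hormad1 and Sycp3), against 3.82% of all promoters and 8.80% of those with at least 12 CpG. It was in 6 of 22 promoters (27.3%) of methylation-silenced and testis germ cell genes and in 4 of 22 (18.2%) of meiotic chromosome genes. In the piRNA pathway, oocyte and spermatid lists it was in 1 of 19 (5.26%), 1 of 12 (8.33%) and 1 of 17 promoters (5.88%). The promoters were also CpG-rich, with a median of 18 CpG and 61.6% GC, against 6 CpG and 52.4% GC over all promoters. Of the lists of related genes, 5 of 19 piRNA pathway promoters (26.3%), 2 of 22 meiotic chromosome promoters (9.09%) and 0 of 17 spermatid promoters held CACGTG. So did 2 of 22 promoters of methylation-silenced and testis germ cell genes (9.09%) and 2 of 12 oocyte promoters (16.7%). A match to these letters is a description of the sequence and not a measured binding site, and the 8 genes with the motif include genes that were higher and genes that were lower after Dox.

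In the Nanog pair, which chose the list, 7 of 10 genes were lower and 3 higher on the Dox-treated array, with a median log2 ratio of -0.89 against -0.01 over all genes. Of the 10, 4 were over 2-fold lower and 0 over 2-fold higher, where 1.17% of all genes were over 2-fold lower and 1.13% over 2-fold higher. Taf7l (-2.48), Sycp3 (-1.48), Stk31 (-1.18) and Slc25a31 (-1.12) were the 4. Ddx4 at -0.90 and Sycp1 at -0.88 lay just inside 2-fold. Hormad1 at -0.08, Asz1 at 0.04, Mael at 0.23 and Dazl at 0.34 differed little.

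The other pairs, which the choice did not use, did not show the list moving one way. In the Esrrb pair 5 genes were above and 5 below 0, with a median of 0.03. There, 1 gene was over 2-fold higher (Dazl) and 2 were over 2-fold lower (Sycp3 and Taf7l), where 1.06% of all genes were over 2-fold higher and 0.967% lower. In the 2i pair 4 were above and 6 below 0, with a median of -0.29. Of them, 2 were over 2-fold higher (Dazl and Hormad1) and 1 lower (Sycp3), against 4.81% and 3.1% of all genes. With the empty vector Dox-untreated array in place of the 2i one, 2 were higher (Dazl, 2.31, and Hormad1, 1.48) and 4 lower (Sycp3, Taf7l, Ddx4 and Sycp1), against 5.99% and 3.85% of all genes. In the empty vector pair 5 were above and 5 below 0, with a median of -0.12. Here 1 was over 2-fold higher (Dazl) and 2 lower (Sycp3 and Sycp1), against 5.36% and 3.85% of all genes. The medians over all genes were 0.00, 0.03 and -0.03 in these pairs. In RNA of whole cultures, fewer cells that carry a transcript and less of it per cell cannot be told apart.

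**Figure D1:**
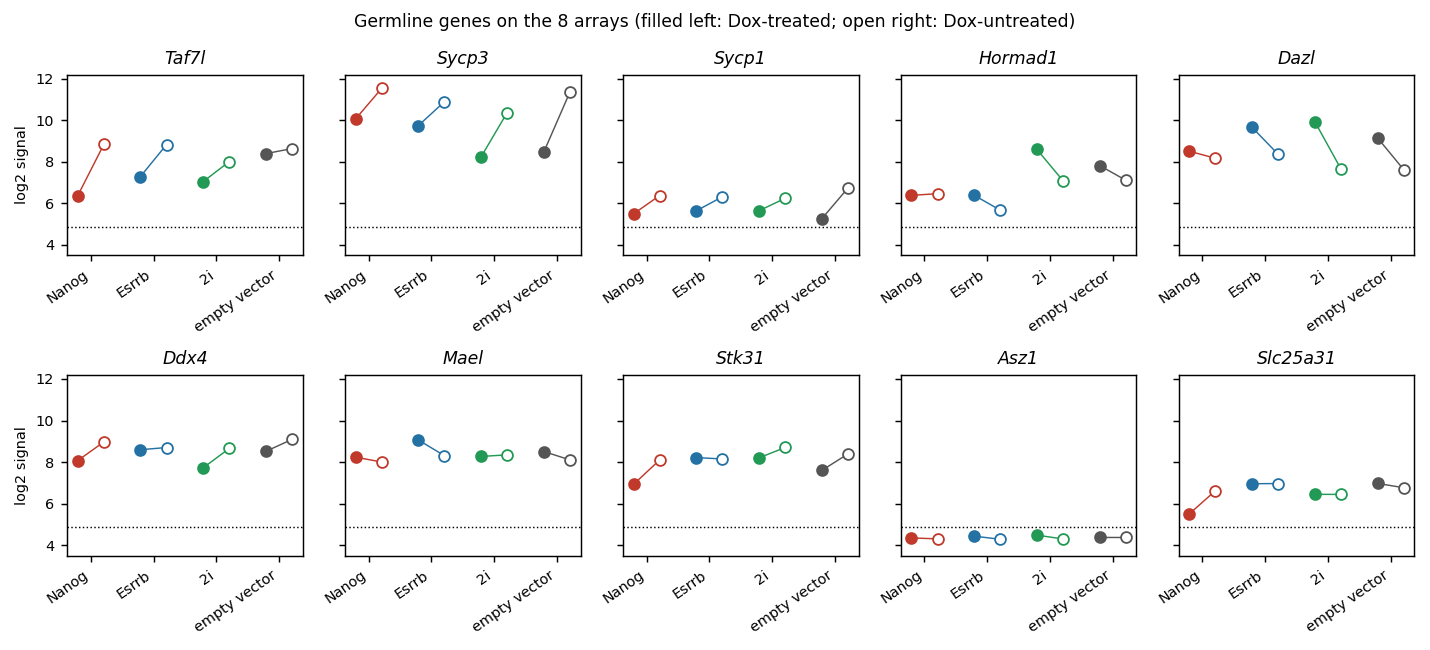
Log2 signal of the 10 germline genes, 1 panel per gene, on the 8 arrays (y axis) for the Nanog, Esrrb, 2i and empty vector pairs (x axis). Filled points are Dox-treated and open points Dox-untreated arrays, 1 array each with no error bar, and the dotted line at 4.86 is the 95th percentile of 44 olfactory receptor probe sets. In the Esrrb, 2i and empty vector pairs, Dazl is higher on every Dox-treated array than on any Dox-untreated one, as are 13.8% of all genes. Sycp3, Sycp1 and Ddx4 are lower there, as are 13.6% of all genes, and Asz1 stays under the dotted line.

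limma was fitted over the Esrrb, 2i and empty vector pairs, with backgrounds standing in for replicates and blocked, and called 0 of the 10 germline genes at an adjusted p of 0.05. It called 26 of 18194 genes higher (0.143%) and 9 lower (0.0495%), so few genes passed at this size, and a gene that was not called is not shown to be unchanged. At an unadjusted p under 0.05 there were 2 germline genes higher (Dazl and Hormad1) and 4 lower (Sycp3, Sycp1, Taf7l and Ddx4), where 11.6% of all genes were higher and 11.1% lower at that level. Over the 6 arrays of the 3 tested pairs, the Dox-treated arrays were all above the Dox-untreated ones for 2 germline genes (Dazl, and Asz1 at signals near background, from which nothing is read) and all below them for 3 (Ddx4, Sycp1 and Sycp3), against 13.8% and 13.6% of all genes. Without the 2i pair limma called 0 genes of all, and the means were 1.42 for Dazl, -2.02 for Sycp3, 0.71 for Hormad1, -1.08 for Sycp1, -0.89 for Taf7l and -0.34 for Ddx4, in the same directions as with it.

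Dazl encodes an RNA-binding protein that germ cells need to enter meiosis. On the Dox-treated arrays its log2 signal was 8.51 in the Nanog, 9.66 in the Esrrb, 9.93 in the 2i and 9.15 in the empty vector pair, against 8.17, 8.36, 7.66 and 7.62 on the Dox-untreated arrays in the same order. In the 3 tested pairs every Dox-treated array was above every Dox-untreated one, as for 13.8% of all genes. The log2 ratios were 0.34, 1.30, 2.28 and 1.53, so that the 2i pair differed by 4.85-fold and the Nanog pair by 1.27-fold, and the 2i Dox-treated array was 2.31 above the empty vector Dox-untreated one. A second probe set of Dazl gave 0.27, 1.20, 2.42 and 1.53. In the Esrrb pair Dazl ranked 18095 of 18194 genes counted from the lowest ratio. Over the 3 tested pairs its mean was 1.70 (standard error 0.217, 95% interval 1.15 to 2.25, higher in 3 of 3 pairs), with an adjusted p of 0.0641 from limma. Without the Esrrb pair it was 1.90 with an adjusted p of 0.0338, and the adjusted p ran from 0.0338 to 0.272 over all settings. Boll, a paralog of Dazl, was between 3.51 and 4.78 on the Dox-treated arrays, below the 4.86 of olfactory receptor probe sets that serves as a rough level of background, and its ratios are not read.

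Sycp3 and Sycp1 encode parts of the synaptonemal complex, the scaffold that joins paired chromosomes in meiosis: SYCP3 of its lateral elements and SYCP1 of the transverse filaments between them. On the Dox-treated arrays Sycp3 was at 10.06, 9.74, 8.24 and 8.47 in the Nanog, Esrrb, 2i and empty vector pairs, against 11.54, 10.89, 10.37 and 11.36 on the Dox-untreated arrays. It was over 2-fold lower in the Nanog pair and in each of the 3 tested pairs, and 0.291% of all genes were so in the 3 tested pairs. The ratios were -1.48, -1.15, -2.14 and -2.89, which left 36.0%, 45.0%, 22.7% and 13.5% of the signal. In the empty vector pair Sycp3 ranked 16 of 18194 from the lowest. The mean over the 3 tested pairs was -2.06 (standard error 0.329, 95% interval -2.89 to -1.23, lower in 3 of 3), with an adjusted p of 0.0751 from limma. Without the Esrrb pair it was -2.51 with an adjusted p of 0.0238, and over all settings the adjusted p ran from 0.0238 to 0.339. With the empty vector Dox-untreated array in place of the 2i one, the 2i ratio was -3.13.

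Sycp1 was at 5.49, 5.64, 5.64 and 5.25 on the Dox-treated arrays, against 6.37, 6.32, 6.24 and 6.73 on the Dox-untreated arrays. The ratios of -0.88, -0.68, -0.60 and -1.48 put it beyond 2-fold only in the empty vector pair. In the 3 tested pairs all of its Dox-treated arrays were below all of its Dox-untreated ones, as for Sycp3, Ddx4 and 13.6% of all genes. Its mean over the 3 tested pairs was -0.92 (standard error 0.219, lower in 3 of 3, adjusted p = 0.109 from limma). Sycp2, which encodes another lateral element protein and is no member of the list, had ratios of -1.28, -0.62, -0.96 and -0.98, where the 2i Dox-treated value of 4.06 was near background, and a mean of -0.85 over the tested pairs (adjusted p = 0.0790 from limma).

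Hormad1 encodes a HORMA domain protein that marks unpaired chromosome axes in meiosis. Its values were 6.38, 6.39, 8.60 and 7.82 on the Dox-treated arrays of the Nanog, Esrrb, 2i and empty vector pairs, against 6.46, 5.67, 7.08 and 7.11 on the Dox-untreated arrays. The ratios were -0.08, 0.72, 1.51 and 0.71, while those of its paralog Hormad2 were -0.64, -0.17, -0.66 and -0.60. Backgrounds differed too: the Esrrb minus the empty vector value was -1.43 on the Dox-treated and -1.44 on the Dox-untreated arrays, close in size to the largest ratio. Over the tested pairs the mean ratio was 0.98 (standard error 0.212, 95% interval 0.44 to 1.52, higher in 3 of 3, adjusted p = 0.0990 from limma).

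**Figure D2:**
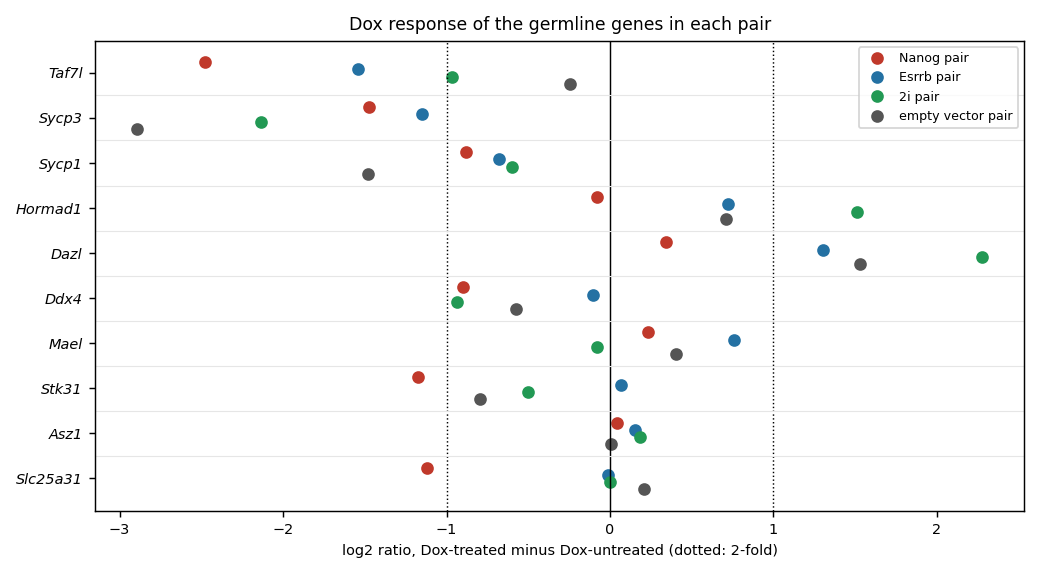
Log2 ratio, Dox-treated minus Dox-untreated, of each germline gene (x axis: log2 ratio, y axis: gene) in the Nanog, Esrrb, 2i and empty vector pairs, 1 point per pair, with dotted lines at 2-fold. Sycp3 lies beyond 2-fold lower in all 4 pairs, Taf7l is at -2.48 in the Nanog and -0.24 in the empty vector pair, and Dazl is at 0.34 in the Nanog and above 2-fold in the other pairs.

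Taf7l is a germ cell paralog of Taf7, a subunit of the general transcription factor TFIID. It was at 6.36, 7.29, 7.04 and 8.39 on the Dox-treated arrays of the Nanog, Esrrb, 2i and empty vector pairs, against 8.84, 8.83, 8.01 and 8.64 on the Dox-untreated arrays. The ratios were -2.48, -1.54, -0.97 and -0.24, equal to 18.0%, 34.4%, 51.2% and 84.5% of the untreated signal. Counted from the lowest of 18194 genes, the ratio of Taf7l ranked 6 for Nanog, 49 for Esrrb and 4886 for the empty vector. Its mean over the tested pairs was -0.92 (standard error 0.264, 95% interval -1.59 to -0.25, lower in 3 of 3, adjusted p = 0.138 from limma). Whether the ratio differed between backgrounds was not tested, since each has 1 pair. With the empty vector Dox-untreated array in place of the 2i one, the 2i ratio was -1.59. Taf7, which is used in all cells, had ratios of 0.02, -0.16, 0.83 and 0.72.

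Ddx4, Mael, Asz1 and Stk31 belong to germ granules or to the piRNA pathway, which silences transposons in germ cells. Ddx4, the VASA helicase, was at 8.07, 8.60, 7.72 and 8.52 on the Dox-treated arrays, against 8.97, 8.70, 8.66 and 9.09 on the Dox-untreated arrays. In the tested pairs the groups did not overlap, as for 13.6% of all genes that were lower, but the smallest gap was narrow. The ratios were -0.90, -0.10, -0.93 and -0.58, and the mean over the tested pairs was -0.54 (standard error 0.192, adjusted p = 0.191 from limma). Mael, which encodes the piRNA factor Maelstrom, was at 8.24, 9.06, 8.27 and 8.51 on the Dox-treated arrays and at 8.0, 8.31, 8.35 and 8.10 on the Dox-untreated arrays. Its groups overlapped, and its mean of 0.36 had an adjusted p of 0.338 from limma.

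Stk31 encodes a kinase with a Tudor domain. Its brighter probe set was at 6.93, 8.22, 8.20 and 7.60 on the Dox-treated arrays of the Nanog, Esrrb, 2i and empty vector pairs, against 8.10, 8.15, 8.70 and 8.39 on the Dox-untreated arrays. The ratios were -1.18, 0.07, -0.50 and -0.79 in the same order. With the empty vector Dox-untreated array in place of the 2i one, the 2i ratio was -0.19. A second probe set, whose probes can also bind other transcripts, gave -1.14, -0.13, -0.64 and -0.84 in the order Nanog, Esrrb, 2i and empty vector. The mean over the tested pairs was -0.41 (standard error 0.200, adjusted p = 0.302 from limma).

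Asz1, which encodes a germ granule protein with ankyrin repeats, had both of its probe sets between 3.21 and 4.48 on all 8 arrays, below 4.86, the 95th percentile of 44 olfactory receptor probe sets. Olfactory receptors are not made in ESCs, so these serve as a rough level of background, as probe sets differ in affinity. Asz1 was thus not told from background, its ratios ran from -0.16 to 0.19, and nothing about its change can be read from them. The other 9 genes were above that level on every array.

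Slc25a31 encodes ANT4, the ADP/ATP carrier of the mitochondria in male germ cells. It was at 5.51, 6.96, 6.45 and 6.97 on the Dox-treated arrays of the Nanog, Esrrb, 2i and empty vector pairs, against 6.62, 6.97, 6.44 and 6.77 on the Dox-untreated arrays. Its ratio was -1.12 in the Nanog pair, and -0.01, 0.00 and 0.21 in the others, so the Dox-treated Nanog array alone was low. The mean over the tested pairs was 0.07 (95% interval of the fit includes 0, adjusted p = 0.825 from limma). The carriers of other tissues, Slc25a4 and Slc25a5, had ratios of 0.46 and 0.23 in the Nanog pair.

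**Figure D3:**
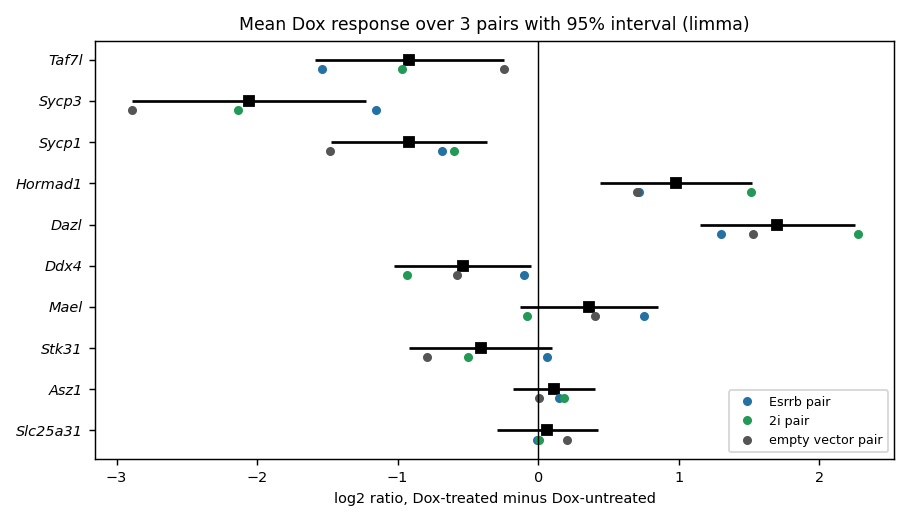
Mean log2 ratio over the Esrrb, 2i and empty vector pairs (squares) with its 95% interval from limma (bars) for the 10 germline genes, and the ratio of each pair as coloured points (x axis: log2 ratio, y axis: gene). The intervals of Dazl (1.15 to 2.25) and Hormad1 lie above 0 and those of Sycp3 (-2.89 to -1.23), Sycp1, Taf7l and Ddx4 below it, while no gene passed the adjusted threshold.

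Set beside the empty vector cells, the germline genes differed more between Dox-treated arrays than between Dox-untreated ones, as all genes did. On the Dox-treated arrays the Nanog minus the empty vector value was above 1 for 1 of 10 genes (Sycp3, 1.59) and below -1 for 3 (Taf7l, -2.03, Slc25a31, -1.47, and Hormad1, -1.43), against 3.22% and 3.68% of all genes. The Nanog Dox-treated array is the one whose low values chose the list, so these counts are a description and nothing is read from them. For Esrrb it was above 1 for 1 (Sycp3, 1.27) and below -1 for 2 (Hormad1, -1.43, and Taf7l, -1.10), against 3.59% and 3.56%. For 2i it was above 1 for 0 and below -1 for 1 (Taf7l, -1.35), against 3.14% and 2.58%. Leaving the Nanog array aside, Sycp3 was thus higher on the Esrrb Dox-treated array than on the empty vector one. Taf7l was lower on both the Esrrb and the 2i Dox-treated array, with 1 array each and no test. On the Dox-untreated arrays 0 genes passed 2-fold for Nanog, where 0.434% of all genes were higher and 0.253% lower, and 0 for 2i (0.517% and 0.242%). For Esrrb 0 were higher and 1 was lower (Hormad1, -1.44), against 1.26% and 0.561%. These comparisons share the empty vector arrays.

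The germline genes did not vary as a block. Over the 8 arrays, the correlation between 2 of them, a description over arrays that share cells and treatment, had a median of 0.05 over 45 pairs of genes. It ran from -0.81 between Dazl and Sycp3 to 0.85 between Sycp1 and Sycp3, with 13 above 0.5 and 10 below -0.5. Their mean, each gene centred on its own mean, was -0.55 on the Nanog Dox-treated array and between -0.08 and 0.28 on the other 7 arrays. The Nanog Dox-treated array chose the list and weighs most in this mean, so likeness to it is a description from which nothing is read. The genes whose pattern over the 8 arrays was most like this mean, by Pearson correlation, were Mrpl38 (0.960), Neto2 (0.935), Kctd13 (0.931), Tex11 (0.927), Rffl (0.920), Parp12 (0.915), Lgals3 (0.907) and Ndfip1 (0.905). Of these, Tex11 is also a meiotic gene. It was at 4.78, 6.27, 6.53 and 5.89 on the Dox-treated arrays of the Nanog, Esrrb, 2i and empty vector pairs, the first of them near background, against 7.10, 6.75, 6.97 and 7.12 on the Dox-untreated arrays.

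Other meiotic chromosome genes were more often lower than higher after Dox. Of 26 measured, the Nanog pair had 0 over 2-fold higher and 6 lower, the Esrrb pair 0 and 0, the 2i pair 4 and 6 and the empty vector pair 3 and 5, with medians of -0.45, -0.12, -0.43 and -0.47, beside the shares of all genes given above. Against the empty vector Dox-untreated array, the 2i counts were 2 and 7 and the median -0.31. limma called 0 of them over the tested pairs, and 2 higher and 11 lower had an unadjusted p under 0.05, where 11.6% and 11.1% of all genes did. Rec8, the meiotic cohesin subunit, had ratios of 0.63, 0.82, 2.44 and 1.91 (mean 1.72 over the tested pairs, adjusted p = 0.0878 from limma). Syce2 and Syce3, of the central element of the synaptonemal complex, were lower, with -0.49, -0.52, -1.60 and -1.74 for Syce2 and -1.56, -0.22, -1.27 and -1.82 for Syce3.

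Of 19 piRNA pathway and germ granule genes, the Nanog pair had 0 over 2-fold higher and 1 lower (Boll), the Esrrb pair 0 and 0, the 2i pair 1 and 2 and the empty vector pair 1 and 3, with medians of -0.38, 0.08, -0.08 and -0.32. Against the empty vector Dox-untreated array, the 2i counts were 2 and 1 and the median -0.12. limma called 0 of them, and 3 higher and 5 lower had an unadjusted p under 0.05, where 11.6% and 11.1% of all genes did. The shares of all genes past 2-fold are those given above. Tdrd12 had ratios of -0.36, -0.97, -0.91 and -2.19. Tdrd7 was at 5.27, 5.30, 5.88 and 6.49 on the Dox-treated arrays, against 5.65, 5.33, 4.80 and 4.61 on the Dox-untreated arrays, where the 2i and empty vector values were near background. Genes of later germ cells were mostly not measurable: 4 of 20 spermatid and 4 of 18 oocyte genes had a mean above the olfactory receptor level. None of the spermatid genes passed 2-fold in any pair. Of the oocyte genes only Zp3 did, with ratios of -0.59, -1.27, -1.40 and -2.25 (mean -1.64 over the tested pairs, adjusted p = 0.0663 from limma). Against the empty vector Dox-untreated array its 2i ratio was -0.76. Among 14 genes of primordial germ cell specification, the median was 0.02, 0.11, 0.12 and -0.44. Ifitm3 of that list had ratios of 1.47, 1.73, 2.61 and 3.18 (mean 2.51, adjusted p = 0.0586 from limma), and Prdm1, which encodes the repressor BLIMP1, -0.46, -0.66, -1.45 and -1.20.

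**Figure D4:**
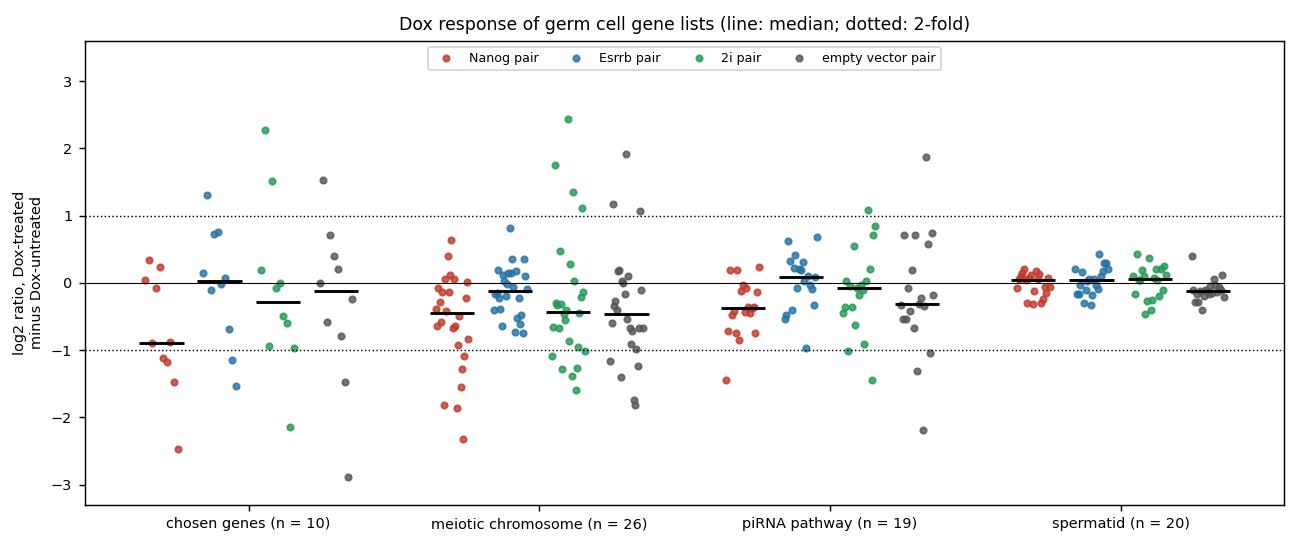
Log2 ratio, Dox-treated minus Dox-untreated (y axis), of the 10 germline genes and of 26 meiotic chromosome, 19 piRNA pathway and 20 spermatid genes in the Nanog, Esrrb, 2i and empty vector pairs, 1 point per gene with the median as a bar. The medians of the germline genes are -0.89, 0.03, -0.29 and -0.12, and the spermatid genes, mostly near background, stay within 2-fold.

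The genes known to keep germline genes silent were all above the olfactory receptor level, 21 of 21. In the Nanog, Esrrb and 2i pairs 0 of them passed 2-fold. In the empty vector pair 1 was higher (Atf7ip, 1.11) and 1 lower (Mga, -1.27), against 5.36% and 3.85% of all genes. With the empty vector Dox-untreated array in place of the 2i one, the 2i pair had 1 higher (Atf7ip, 1.04) and 2 lower (Mga, -1.09, and Cbx1, -1.14). There, 5.99% and 3.85% of all genes were so, and the shares for the other pairs are given above. Mga, which carries the E-box binding domain of the Polycomb complex, had ratios of -0.34, -0.42, -0.72 and -1.27 (mean -0.81, adjusted p = 0.105 from limma), and Pcgf6, its Polycomb subunit, -0.43, -0.41, -0.39 and -0.71. Uhrf1, which brings the maintenance methyltransferase to DNA, had -0.03, -0.43, -1.25 and -1.33. It does not stand for the 13 measured genes of DNA methylation and demethylation. Their medians were 0.21, 0.09, -0.52 and -0.02, with 0, 0, 1 and 2 over 2-fold higher and 0, 0, 2 and 1 lower. Dnmt1, the maintenance methyltransferase itself, had 0.49, 0.25, -0.36 and 0.14. The part of all these genes in the levels of the germline genes was not tested.

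Markers of other cell types differed in several pairs. The summed linear signal of 12 trophoblast markers was 2152, 2421, 6146 and 13833 on the Dox-treated arrays of the Nanog, Esrrb, 2i and empty vector pairs, against 2049, 2634, 1850 and 1597 on the Dox-untreated arrays, and 0, 0, 7 and 9 of the 12 were over 2-fold higher. Krt8, Krt18 and Krt19 weighed most in that sum on the empty vector Dox-treated array, at 12.25, 11.89 and 11.39. The trophoblast factor Elf5 stayed between 3.20 and 3.47 on all arrays, below the olfactory receptor level of 4.86, so nothing is read from it. The other trophoblast factors of the list were higher in the empty vector pair. Their ratios there were 2.70 for Ascl2, 1.95 for Gata3, 1.10 for Eomes, 1.07 for Cdx2, 0.98 for Tfap2c and 0.54 for Hand1. Gata3 and Cdx2 were near background on the empty vector Dox-untreated array. The summed signal of 12 primitive endoderm markers was 5369, 6075, 7816 and 9052 on the Dox-treated arrays, against 3407, 8272, 3850 and 3079 on the Dox-untreated arrays. Sparc, at 12.48 on the empty vector Dox-treated array, weighed most in this sum there, so it does not stand for the 12 markers alike. Of these 12, 1, 0, 4 and 4 were over 2-fold higher and 1, 6, 2 and 1 over 2-fold lower. Their median ratio was -0.85 in the Esrrb and 0.04 in the empty vector pair. The summed signal of 15 ESC identity genes was 93352, 106427, 93858 and 71236, against 96504, 101170, 101071 and 98020. In the Nanog pair these sums differed less than in the empty vector pair, though that of the primitive endoderm markers still went from 3407 to 5369. The part of a changed mix of cells in the values of the germline genes was not tested.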

How the data were processed

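The authors hybridized labelled cRNA to Affymetrix mouse genome arrays and made the deposited log2 values by background subtraction and robust multiarray analysis (RMA) with affy in R, including quantile normalization. No versions are given in the sources used here. The log base was taken as 2, since the values run from 1.82 to 14.6 and no source states it. Such values cannot show a shift common to all genes. No further normalization was applied, and 0 value columns lacked a sample. The pair with active Stat3 is not analysed here. The platform annotation gave 1 gene symbol to 34958 of 45101 probe sets, several to 932, which were not named, and none to 9211, and 34754 matched RefSeq by Entrez ID. The brightest probe set over the 8 arrays stood for each of 18194 genes.

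With 1 array per condition, 0 tests were made within a pair, and genes past 2-fold were counted. limma 3.58.1 in R 4.3.3 (lmFit and eBayes with a trend) tested the Dox coefficient over the Esrrb, 2i and empty vector pairs, with the background as a block, 2 residual degrees of freedom and Benjamini-Hochberg adjustment over all genes at 0.05. The fit was tested on simulated data. The p-values measure the spread between backgrounds of 1 line, which are not replicates of a condition. The background is the only pairing in these arrays. Python 3.11.15 (numpy 2.4.6, pandas 2.3.3), with scipy 1.17.1 for intervals and matplotlib 3.10.9 for plots, did the rest. Promoters are the 250 bases before each RefSeq start of GRCm38.p6.

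The germline genes and the other lists were chosen with earlier results of these data known. Genes named are all 10 members, Gnl3, Dusp6, Nanog, Esrrb and the paralogs, from each list at most 4 genes above the median signal, by the size of their limma coefficient, and the 8 genes most like the members' mean. Dnmt1 was added to these with its values known. Pou5f1, Sox2 and the trophoblast factors Elf5, Ascl2, Gata3, Eomes, Cdx2, Tfap2c and Hand1 fall outside this rule and were picked with their values known. Alternatives covered the choice of probe set, a filter on dim genes, normalization, limma settings and thresholds, all 4 pairs and each pair left out. They also covered another array to set the 2i Dox-treated one against, which for the meiotic, piRNA and repressor lists was added after seeing the data.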

Additional observations from a re-analysis of the deposited data

Results flagged for a closer look

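Slc25a31 is listed because its log2 ratio had opposite signs in the backgrounds with and without forced Nanog or Esrrb. It was -1.12 with Nanog and -0.0113 with Esrrb, against 0.00242 with 2i and 0.21 with the empty vector. The difference was not tested, and the Esrrb and 2i values are near 0. With the empty vector Dox-untreated array in place of the 2i one, the 2i ratio was -0.32. The split of signs thus rests on the 2i Dox-untreated array, which did not show the low Dusp6 of MEK inhibition.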

How the results depend on the processing

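The number of genes that limma called over the Esrrb, 2i and empty vector pairs, 26 higher and 9 lower, moved with most settings: 12 and 4 when the probe sets of a gene were averaged, 83 and 48 with each probe set on its own, 1 and 1 without genes below the median signal, 3 and 1 without the trend, 7 and 2 with the robust fit, 80 and 50 with no replicate block, 671 and 616 over all 4 pairs and 561 and 412 at an adjusted p under 0.1. With 1 pair left out in turn, 0 to 587 were called higher and 0 to 402 lower, and 0 to 2 germline genes, where 587, 402 and 2 were reached without the Esrrb pair. The number of germline genes called was 3 over all 4 pairs (Dazl, Sycp1 and Sycp3, in a fit that uses the pair that chose the list). It was 3 at an adjusted p under 0.1 (Dazl, Sycp3 and Hormad1), 2 without the Esrrb pair (Dazl and Sycp3) and 0 under the other settings. Slc25a31 changed sign, to -0.23 over all 4 pairs and, with 1 pair left out in turn, from -0.00444 (without the empty vector pair) up to 0.10 (without the Esrrb pair). The causes were not tested.

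When Asz1, the gene below the median signal, was left out, the median over germline genes became -0.50 in the 2i and -0.24 in the empty vector pair and turned to -0.01 in the Esrrb pair, where only the 2i shift exceeded 0.171, the median residual SD of the fit. At 1.5-fold the empty vector pair had 2 genes higher, the Esrrb pair 3 higher and the 2i pair 4 lower. At 3-fold the Nanog pair had 1 lower, the Esrrb pair 0 higher and 0 lower, the 2i pair 1 higher and the empty vector pair 0 higher and 1 lower. With the empty vector Dox-untreated array as its reference, the 2i pair had 4 genes lower rather than 1: Taf7l at -1.59, Ddx4 at -1.37, Sycp1 at -1.09 and Sycp3 at -3.13. Renewed quantile normalization, centring and leaving out probe sets of shared sequence kept the counts of genes called within 1.5 times of those reported.

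The main limit is 1 array per condition: a ratio within a pair holds array, culture and Dox differences that cannot be told apart. The backgrounds stand in for replicates in the test, with 2 residual degrees of freedom. Signal near background, as for Asz1, compresses ratios.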
